A study of Mus musculus with 8 samples.

Results

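This account covers 10 enzymes that make serine and move its carbon through folate, measured in mouse embryonic stem (ES) cells given an esiRNA against Ctr9 or against luciferase. Ctr9 is a subunit of the Paf1 complex, which accompanies RNA polymerase II during elongation. An esiRNA is a mixture of short interfering RNAs cut from a longer double-stranded RNA. Luciferase is absent from these cells, so its esiRNA served as the transfection control. There were 4 arrays per treatment, all from cells with the strain label Oct4-Gip at passage 25, transfected by lipofection and taken on day 4, so the 2 groups differ by label only in the esiRNA. The enzymes were chosen by name. They, the related gene lists and the tests were chosen with earlier results of these data known, so the counts below are not independent support. Every probe set annotated to exactly 1 symbol equal to a member was read. This gave 24 probe sets of 45037 tested and 10 genes of 18193. Another 2 probe sets name Phgdh together with a second gene and were left out.

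Serine is made from a glycolytic intermediate in 3 steps, catalysed by Phgdh, Psat1 and Psph. Serine hydroxymethyltransferase then passes a carbon from serine to tetrahydrofolate, and the folate enzymes carry that carbon to purines, thymidylate and methionine. The folate steps run in parallel in the cytosol and in mitochondria with different enzymes, and the pathway is known for its activity in fast-dividing cells such as ES cells.

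Signals are on the log2 scale throughout, so a difference of -1 would be a halving of signal. Array medians lay between 5.74 and 5.76, and arrays correlated at 0.997 to 0.998 within a group and at 0.992 to 0.994 between groups. The targeted gene itself was little changed. Of 5 Ctr9 probe sets, 2 were lower (-0.15 and -0.18) and 1 was higher (0.29) in the Ctr9 esiRNA arrays. The higher one was dim, at a mean of 5.90 in the luciferase arrays. Another dim one, at 5.23, differed by 0.27 and did not pass. The brightest differed by -0.09 (SE 0.047, limma adjusted p = 0.209). These values do not show a clear loss of Ctr9 RNA, so the groups rest on the labels alone. No label says that the 4 samples of a group were separate cultures. The p-values therefore rest on a spread among samples that may be technical, and the number of arrays limits the precision. In limma, the spread of each probe set is also drawn toward a value common to all probe sets. The SEs and intervals below use that adjusted spread. Cell type markers were read from short lists. Of all 18193 genes, each by its brightest probe set, 15.0% were lower and 15.8% higher at a limma adjusted p under 0.05. Among 10 ES cell markers, 6 were lower and none was higher. The list's mean lay between 12.89 and 12.93 in the luciferase arrays and between 12.47 and 12.49 in the Ctr9 esiRNA arrays. Trophectoderm markers were higher in 8 of 10 cases (list mean 6.48 to 6.65 against 7.65 to 7.69), neuroectoderm markers in 5 of 9 with 1 lower (6.16 to 6.29 against 6.56 to 6.78), primitive endoderm markers in 4 of 10 (5.81 to 5.90 against 6.19 to 6.38) and feeder fibroblast markers in 3 of 9 (5.49 to 5.59 against 5.69 to 5.72). In the luciferase arrays, 3 trophectoderm, 4 neuroectoderm, 5 primitive endoderm and 5 feeder fibroblast markers lay below the median of all probe sets. A list mean does not stand for each marker. Of the primitive endoderm markers, Foxa2, Dab2, Lrp2 and Amn were higher, and Gata4, Gata6, Sox17, Pdgfra, Afp and Ttr did not pass. The part of these marker shifts in the results below was not tested, and fewer cells of a type cannot be told apart from less RNA per cell.

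The serine and folate enzymes were lower in the Ctr9 esiRNA arrays. Each gene was read by its brightest probe set and called at a Benjamini-Hochberg adjusted p under 0.05 in limma, with adjustment over all 45037 probe sets. Of the 10 genes, 8 fell, none rose, and Phgdh and Shmt1 did not pass. Among all 18193 genes, 30.8% were called, 15.0% lower and 15.8% higher. The median log2 difference of the 10 genes was -0.59, against 0.0036 over all genes. Aldh1l2 had the 93rd largest fall of all genes and Psph the 134th. Of the 24 probe sets, 19 fell and none rose, where 24.9% of all probe sets were called, 13.1% lower. Groups did not overlap for 19 of the 24, against 28.6% of all probe sets, or 14.9% counting those lower with Ctr9 esiRNA. For 9 of the 10 genes the 4 values of one treatment did not overlap those of the other, which held for 36.6% of all genes, and with lower Ctr9 esiRNA values for 17.8%.

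**Figure D1:**
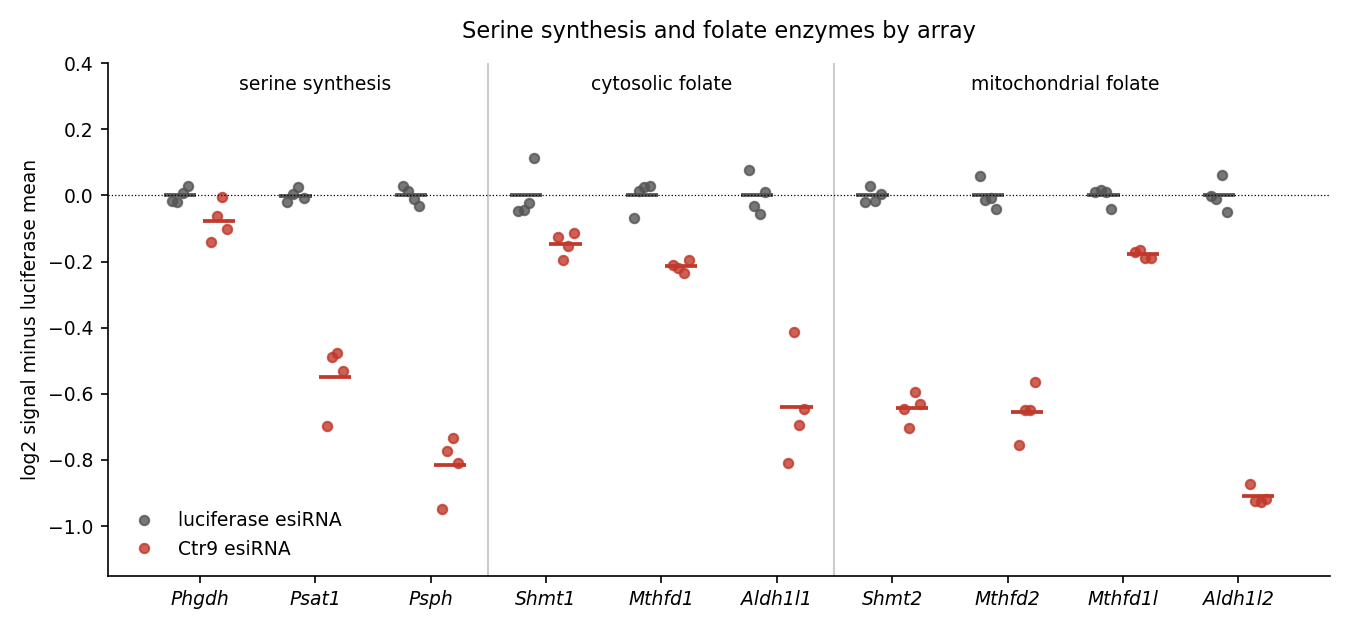
Log2 signal of each enzyme's brightest probe set in each array, minus the mean of the 4 luciferase arrays; points are arrays and bars are group means (n = 4 each). Psat1, Psph, Aldh1l1, Shmt2, Mthfd2 and Aldh1l2 lie more than 0.4 below the luciferase mean in every Ctr9 esiRNA array, whereas Phgdh overlaps the luciferase arrays.

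Of the serine synthesis enzymes, Psph and Psat1 fell and Phgdh did not pass. Psph, the phosphatase that releases serine in the last step, read 10.70, 10.68, 10.66 and 10.64 in luciferase arrays 1 to 4 and 9.72, 9.90, 9.93 and 9.86 in Ctr9 esiRNA arrays 1 to 4. All Ctr9 esiRNA values lay below all luciferase values, with array 1 the lowest. The log2 difference was -0.82 with an SE of 0.055 (limma adjusted p = 4.13e-06), and the signal thus changed by -43.2%. Psat1, the aminotransferase of the middle step, read 12.43, 12.45, 12.47 and 12.44 against 11.75, 11.96, 11.97 and 11.91. Its groups did not overlap either, and Ctr9 esiRNA array 1 was again the lowest. Psat1 fell by 0.55 (SE 0.056, limma adjusted p = 6.47e-05). Its other probe set fell by 0.42 (SE 0.063).

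Phgdh, the dehydrogenase that commits a glycolytic intermediate to serine, read 11.58, 11.58, 11.61 and 11.63 with luciferase esiRNA and 11.46, 11.53, 11.59 and 11.49 with Ctr9 esiRNA. The 2 groups overlapped, since Ctr9 esiRNA array 3 lay within the luciferase range. The difference of -0.08 did not pass (SE 0.046, limma adjusted p = 0.269), and its 95% interval ran from -0.18 to 0.025. The intervals of Psat1 (-0.67 to -0.42) and Psph (-0.94 to -0.69) do not reach into it, though no test compared the 3 enzymes. Of the other 3 Phgdh probe sets, 1 fell by 0.17 (SE 0.048, limma adjusted p = 0.0284), whereas the others differed by -0.06 and -0.04. All 4 carry the manufacturer's suffix for probes that may match other transcripts, and 2 further ones were annotated with a second gene, so the Phgdh values are uncertain to that extent.

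Among the cytosolic folate enzymes, Mthfd1 and Aldh1l1 fell, and the call for Shmt1 depended on the probe set. Mthfd1, which interconverts folate-bound carbon units by 3 activities on 1 protein, read 11.58, 11.66, 11.67 and 11.67 against 11.43, 11.42, 11.41 and 11.45. Luciferase array 1 was the lowest of its group and still lay above every Ctr9 esiRNA value. Mthfd1 fell by 0.21 (SE 0.043, limma adjusted p = 0.00468). A second probe set fell by 0.19, while the third and dimmest, at 9.01, differed by 0.040 and did not pass, so that the mean of the 3 fell by 0.12 (limma adjusted p = 0.0290). The third alone of these carries the suffix for possible matches elsewhere.

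Shmt1, the cytosolic serine hydroxymethyltransferase, read 11.03, 11.03, 11.05 and 11.19 in the luciferase arrays and 10.95, 10.88, 10.93 and 10.97 in the Ctr9 esiRNA arrays. The groups did not overlap, and luciferase array 4 stood above the other 3. The difference of -0.15 did not pass on this brightest probe set (SE 0.051, limma adjusted p = 0.0631). The other 3 Shmt1 probe sets fell by 0.24, 0.34 and 0.26 (limma adjusted p = 0.00872, 0.000357 and 0.00335), and the mean of all 4 fell by 0.25 (limma adjusted p = 0.000498).

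Aldh1l1, a formyltetrahydrofolate dehydrogenase that releases the folate-bound carbon as carbon dioxide, read 7.75, 7.64, 7.62 and 7.68 against 6.86, 7.26, 6.98 and 7.02. The groups were apart, with the widest spread among Ctr9 esiRNA arrays of the 10 genes (SD 0.166). Aldh1l1 fell by 0.64 (SE 0.079, limma adjusted p = 0.000218). Its other probe set, below the array median at 4.25, fell by 0.26 (SE 0.079, limma adjusted p = 0.0391) with overlapping groups.

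All 4 mitochondrial folate enzymes fell, on all 8 of their probe sets. Shmt2, which makes glycine and loads folate with serine's carbon inside mitochondria, read 11.27, 11.32, 11.28 and 11.30 against 10.65, 10.59, 10.70 and 10.66. No value of one treatment came near the other. Shmt2 fell by 0.64 (SE 0.044, limma adjusted p = 4.57e-06), or -36.0% in signal. Of its other 3 probe sets, 2 fell by 0.64 as well and the dimmest fell by 0.36. The brightest carries the suffix for possible matches elsewhere, and the next, without that suffix, gave -0.64 (SE 0.052).

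Mthfd2, the mitochondrial methylenetetrahydrofolate dehydrogenase, read 10.87, 10.80, 10.81 and 10.77 with luciferase esiRNA and 10.06, 10.16, 10.16 and 10.25 with Ctr9 esiRNA. The groups were apart by more than the range of either. Mthfd2 fell by 0.65 (SE 0.052, limma adjusted p = 1.29e-05), or -36.5% in signal. Its second probe set fell by 0.54. Mthfd1l, which releases formate from folate for export to the cytosol, read 10.86, 10.87, 10.87 and 10.81 against 10.68, 10.69, 10.67 and 10.66. Its groups did not overlap, but the gap was narrower than that of Mthfd2. Mthfd1l fell by 0.18 (SE 0.041, limma adjusted p = 0.00943) on its single probe set, and this call ended without luciferase arrays 1 and 2 (limma adjusted p = 0.0652).

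Aldh1l2, the mitochondrial counterpart of Aldh1l1, read 6.52, 6.52, 6.59 and 6.48 in the luciferase arrays and 5.65, 5.60, 5.60 and 5.61 in the Ctr9 esiRNA arrays. The Ctr9 esiRNA values lay close together and far below the luciferase values. Aldh1l2 fell by 0.91 (SE 0.044, limma adjusted p = 5.96e-07), or -46.8% in signal. Its mean of 5.61 with Ctr9 esiRNA is under the median of all probe sets (5.75), where differences are compressed.

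**Figure D2:**
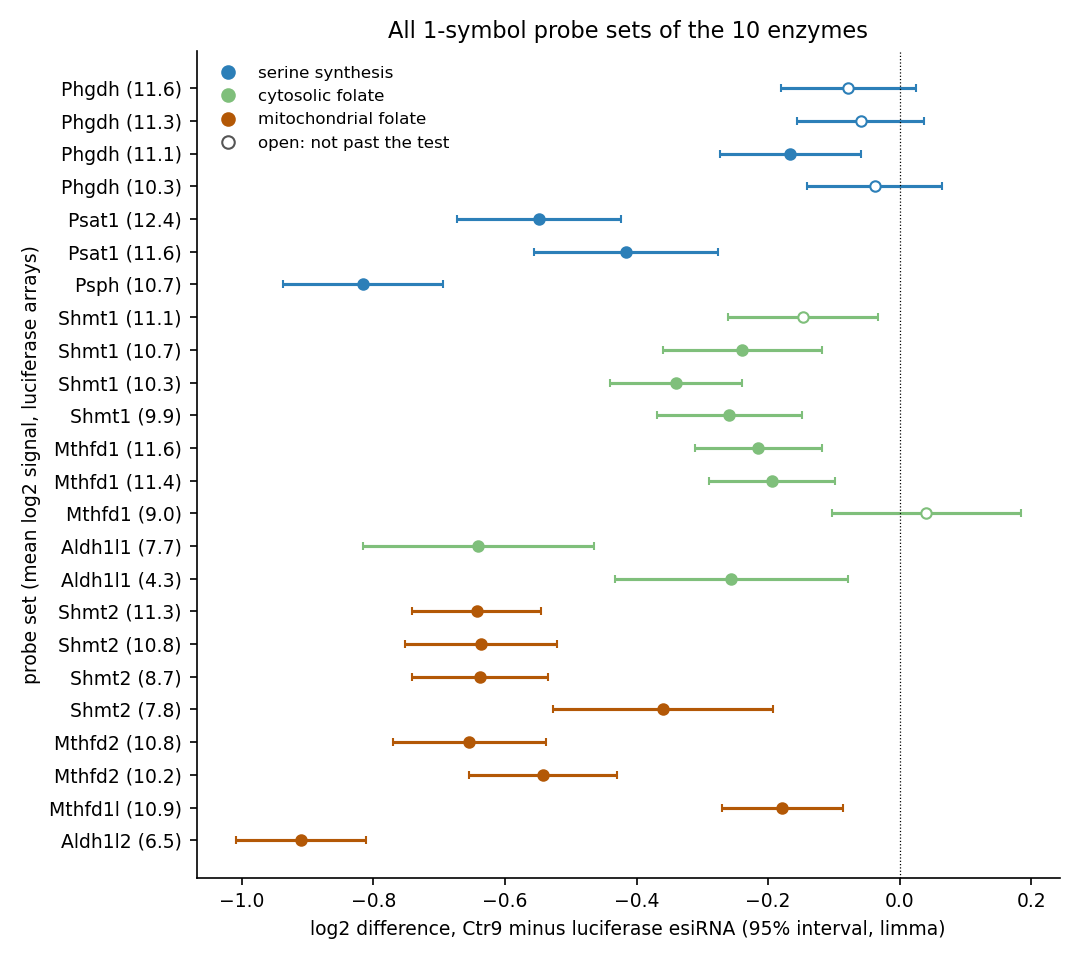
Log2 difference between treatments for all 24 probe sets, with limma's 95% interval; labels give the gene and its mean log2 signal in the luciferase arrays, colours the role, and open points did not pass. All 8 mitochondrial folate probe sets lie below 0, and 23 of the 24 differences are negative.

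Mitochondrial and cytosolic enzymes were compared by the change, between treatments, of their within-array log2 difference. Only this shift can be read, since different probe sets do not share a scale. Shmt2 minus Shmt1 was 0.24, 0.29, 0.22 and 0.10 in the luciferase arrays and -0.31, -0.29, -0.23 and -0.30 in the Ctr9 esiRNA arrays. The groups did not overlap, and the shift was -0.50 (exact two-sided permutation p = 0.0286, the smallest that 4 against 4 allows; 0.0429 adjusted over 3 pairs). The difference between treatments was thus larger for Shmt2 than for Shmt1. With the mean of each gene's probe sets that shift was -0.32 (exact permutation, adjusted p = 0.0286).

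The mean of Mthfd2 and Mthfd1l minus Mthfd1 shifted by -0.20 (exact two-sided permutation p = 0.0286, 0.0429 adjusted over 3 pairs), with values from -0.88 to -0.71 against -1.06 to -0.99. Of these mitochondrial enzymes, Mthfd2 fell by 0.65, whereas Mthfd1l differed by -0.18 beside -0.21 for cytosolic Mthfd1. Aldh1l2 minus Aldh1l1 was -1.23, -1.12, -1.03 and -1.21 against -1.21, -1.66, -1.38 and -1.42. Ctr9 esiRNA array 1 lay inside the luciferase range here. The shift of -0.27 did not pass (exact two-sided permutation p = 0.0571, 0.0571 adjusted over 3 pairs) on the brightest probe sets and became -0.46 (exact permutation, adjusted p = 0.0286) with the mean of each gene's probe sets, where the dim Aldh1l1 probe set counts equally.

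Over all 7 folate enzymes, the mean of the 4 mitochondrial ones minus the mean of the 3 cytosolic ones was -0.26 ± 0.055 with luciferase esiRNA and -0.52 ± 0.050 with Ctr9 esiRNA (SD, n = 4 each), a change of -0.26. The compartments were not uniform. Aldh1l1 in the cytosol fell by 0.64, as did Shmt2 in mitochondria, and mitochondrial Mthfd1l fell by 0.18.

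**Figure D3:**
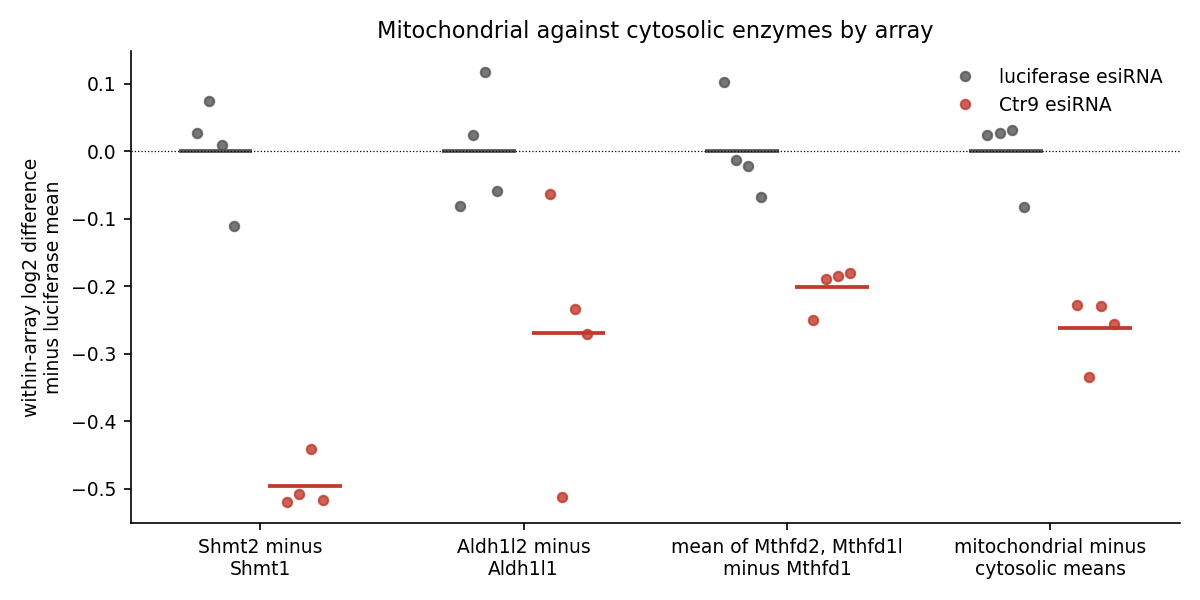
Within-array log2 difference between mitochondrial and cytosolic enzymes, minus the mean of the 4 luciferase arrays; points are arrays and bars are group means (n = 4 each). The groups are apart for Shmt2 minus Shmt1 and for the Mthfd comparison, and 1 Ctr9 esiRNA array overlaps the luciferase arrays for Aldh1l2 minus Aldh1l1.

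Promoter sequences were read because most of the enzymes moved together. Shown are the 250 bases before the start site of 4 enzymes that fell by more than 0.5 and of Phgdh, which did not pass, from RefSeq on GRCm38.p6 with the gene's own strand 5′ to 3′. Windows were found for 9 of the 10 genes, 10 windows in all because Psat1 has 2, and Aldh1l2 was not matched. Aldh1l1 also fell by more than 0.5 and has a window, which is not shown. Capitals mark CCAAT or its reverse ATTGG, a motif bound by the factor NF-Y that was added to the search after the sequences had been seen. The windows are chr5:129787254-129787503 (minus strand) for Psph, chr19:15925060-15925309 (minus strand) for Psat1, chr6:83317605-83317854 (minus strand) for Mthfd2, chr10:127522445-127522694 (minus strand) for Shmt2 and chr3:98339970-98340219 (minus strand) for Phgdh.
Psph: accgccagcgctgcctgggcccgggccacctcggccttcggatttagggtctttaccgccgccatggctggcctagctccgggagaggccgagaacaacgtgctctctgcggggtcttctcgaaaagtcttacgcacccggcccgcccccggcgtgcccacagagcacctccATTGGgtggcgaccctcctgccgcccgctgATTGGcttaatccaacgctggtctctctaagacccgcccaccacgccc
Psat1: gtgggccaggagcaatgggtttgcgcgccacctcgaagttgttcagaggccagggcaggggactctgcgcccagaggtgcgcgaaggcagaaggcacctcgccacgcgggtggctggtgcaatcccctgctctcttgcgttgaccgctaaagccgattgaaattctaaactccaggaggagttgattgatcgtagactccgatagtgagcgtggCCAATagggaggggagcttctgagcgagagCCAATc
Mthfd2: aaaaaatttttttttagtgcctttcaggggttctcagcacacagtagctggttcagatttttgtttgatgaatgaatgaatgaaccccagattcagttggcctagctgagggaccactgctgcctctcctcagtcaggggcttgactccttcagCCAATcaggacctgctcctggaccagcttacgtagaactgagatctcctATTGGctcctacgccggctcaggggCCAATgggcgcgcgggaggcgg
Shmt2: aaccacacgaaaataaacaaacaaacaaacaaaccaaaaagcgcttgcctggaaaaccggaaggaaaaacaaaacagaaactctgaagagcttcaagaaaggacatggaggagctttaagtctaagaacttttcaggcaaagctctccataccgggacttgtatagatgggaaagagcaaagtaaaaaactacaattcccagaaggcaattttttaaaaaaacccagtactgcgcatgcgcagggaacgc
Phgdh: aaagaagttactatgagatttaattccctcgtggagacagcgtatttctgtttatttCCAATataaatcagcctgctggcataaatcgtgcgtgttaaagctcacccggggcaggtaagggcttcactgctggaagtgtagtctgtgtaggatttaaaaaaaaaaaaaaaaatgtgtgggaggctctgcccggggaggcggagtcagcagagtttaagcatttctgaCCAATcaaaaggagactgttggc

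The letters CCAAT, on either strand, stood in 7 of the 10 windows (70%), against 33.8% of all 32851 windows of that length. Since CCAAT was picked after these windows had been seen, these shares do not test whether it is frequent in them. The letters stood in the Phgdh window as well as in those of Psph and Mthfd2 and in the Psat1 window shown. They were not found for Shmt2 or Mthfd1l, nor in the other Psat1 window, which is not shown. In Psph the matches began 78 and 48 bases before the start, and in Mthfd2 they began 96, 47 and 22 bases before it. TGATGNAA (reverse TTNCATCA), the core of the element read by ATF4 with C/EBP factors, was found in none of the 10 windows and in 3.45% of all windows. CACGTG, the E-box bound by Myc among others, was found in none of the 10 and in 6.02% of all. At shares this low, 10 windows without a match are not unusual, so these counts do not set the enzymes apart from all windows. A motif outside these 250 bases would not be seen.

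Genes that act beside these enzymes were read from 7 lists with 71 measured genes, of which 24 were lower and 16 were higher. The counts of each list stand beside 15.0% of all genes called lower, 15.8% called higher and 30.8% called in either direction, and a list whose share is near these does not stand apart from all genes by its count. Of 7 measured genes of folate uptake and retention, 4 rose, none fell and 3 did not pass, at a median of 0.24, where 15.8% of all genes were called higher. The folate receptor gene Folr1 read 9.83, 9.82, 9.89 and 9.93 against 10.18, 10.23, 10.23 and 10.24, and the groups did not overlap. Folr1 rose by 0.35 (SE 0.045, limma adjusted p = 0.000311). The proton-coupled folate transporter gene Slc46a1 rose by 0.35 (SE 0.056), the reduced folate carrier gene Slc19a1 by 0.29 (SE 0.049; 0.18 as the mean of its 3 probe sets) and the mitochondrial folate carrier gene Slc25a32 by 0.24 (SE 0.046).

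Among 9 other folate enzymes, 2 rose, none fell and 7 did not pass, at a median of 0.015, with 15.8% of all genes called higher and 30.8% called in either direction. Mthfd2l, a second mitochondrial enzyme of the Mthfd2 reaction, read 6.15, 6.21, 5.80 and 6.24 with luciferase esiRNA and 6.97, 6.74, 6.61 and 6.79 with Ctr9 esiRNA. It rose by 0.68 (SE 0.105, limma adjusted p = 0.000937), opposite to Mthfd2, on signals near the array median, and 2 of its 4 probe sets passed, their mean rising by 0.38. Mthfsd rose by 0.21 (SE 0.049, limma adjusted p = 0.0113), a call that ended without luciferase arrays 1 and 2 (limma adjusted p = 0.0978). Tyms, thymidylate synthase, differed by -0.0025 (SE 0.072, limma adjusted p = 0.986) on a probe set below the array median, at 4.98. Tdh, the threonine dehydrogenase of mouse ES cells, had no probe set with 1 symbol.

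Gldc, which breaks down glycine in mitochondria, rose by 0.19 (SE 0.048, limma adjusted p = 0.0136), the single call among 3 measured genes of glycine and threonine breakdown, and it ended without luciferase arrays 1 and 2 (limma adjusted p = 0.0719). There were 2 higher calls in that list when dim probe sets were left out or the prior was trended. Of 12 genes of purine synthesis, 3 rose and 1 fell (2 fell without luciferase array 4), at a median of 0.0035. These 4 calls of 12 are near the 30.8% of all genes called in either direction. The phosphoribosyl pyrophosphate synthetase genes parted, with Prps2 higher by 0.42 (SE 0.057) and Prps1 lower (-0.38, SE 0.043). Gmps, which makes GMP, rose by 0.33 (SE 0.043) on its brightest probe set, but the mean of its 3 probe sets differed by 0.052 and did not pass (limma adjusted p = 0.521). Impdh1, of the preceding step, rose by 0.20 (SE 0.049, limma adjusted p = 0.0144), which ended without luciferase arrays 3 and 4 (limma adjusted p = 0.0550).

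In the methionine cycle and transsulfuration list, 5 of 10 genes fell and 2 rose, at a median of -0.16, beside 15.0% lower and 15.8% higher among all genes. Cth, which makes cysteine from serine-derived cystathionine, read 10.59, 10.56, 10.60 and 10.55 against 9.80, 9.81, 9.87 and 9.80, with no overlap. Cth fell by 0.76 (SE 0.042). The betaine-dependent methyltransferase gene Bhmt fell by 0.55 (SE 0.074), and Ahcyl2 fell by 0.33 (SE 0.053; -0.21 as the mean of its 3 probe sets). Mtr, the methionine synthase that takes its methyl group from folate, rose by 0.39 (SE 0.054; 0.25 as the mean of its 2 probe sets). The remaining calls, named after their values were seen, were Gnmt (-0.29) and Cbs (-0.20), lower, and Ahcyl1 (0.17), higher. The 5 lower calls became 3 without luciferase array 1 or Ctr9 esiRNA array 1, and the 2 higher calls became 1 without any single luciferase array and without Ctr9 esiRNA array 2 or 4.

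Of 14 genes that supply or use serine, 6 fell and 3 rose, at a median of -0.017, where all genes gave 15.0% lower and 15.8% higher, so the 3 higher calls are near the background. The falls included the neutral amino acid carriers that bring serine into the cell. Slc1a4 read 8.79, 8.86, 8.85 and 8.82 against 7.93, 8.22, 8.06 and 8.13, and fell by 0.74 (SE 0.063). Slc1a5 fell by 0.71 (SE 0.047) on the brighter of its 2 probe sets, the other of which did not pass (mean of both -0.39), and the glycine carrier gene Slc6a9 fell by 0.41 (SE 0.065). Serinc5, a membrane protein named as a serine incorporator, rose by 1.30 (SE 0.073). Named after their values were seen, Sfxn3 (-0.28), Glyctk (-0.23) and Sptlc1 (-0.21) were the remaining lower calls, and Serinc1 (0.24) and Sfxn1 (0.18), which carries serine into mitochondria, the remaining higher ones. The 6 lower calls became 3 without luciferase array 2, and the 3 higher calls became 1 without luciferase array 3 or Ctr9 esiRNA array 4.

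ATF4 is a transcription factor known to drive the serine synthesis genes, Shmt2 and Mthfd2 when amino acids are short. Of 16 genes comprising Atf4 and its known targets or partners outside serine synthesis, 12 fell and 1 rose, at a median of -0.38, beside 15.0% of all genes called lower. Atf4 itself read 11.83, 11.84, 11.86 and 11.92 with luciferase esiRNA and 10.85, 10.98, 11.07 and 10.98 with Ctr9 esiRNA. All Ctr9 esiRNA values lay below all luciferase values. Atf4 fell by 0.89 (SE 0.055), although the mean of its 3 probe sets fell by only 0.56 (limma adjusted p = 5.80e-06). Asns, which makes asparagine, fell by 0.54 (SE 0.052).

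The stress-induced factor gene Ddit3 read 9.11, 9.15, 9.16 and 9.12 against 7.77, 7.96, 8.15 and 8.11, and fell by 1.14 (SE 0.078). Atf5 fell by 1.22 (SE 0.059) and Nupr1 fell by 2.06 (SE 0.095). The single higher call was Ddit4 (0.64, SE 0.081), named after its value was seen. Ctr9 esiRNA array 1 was the lowest of its group for 12 of these 16 genes and for 5 of the 10 serine and folate enzymes. How often it was the lowest over all genes is not given here, and whether the 2 sets vary together was not tested. Without that array the differences were still -0.50 for Psat1, -0.77 for Psph and -0.62 for Mthfd2.

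**Figure D4:**
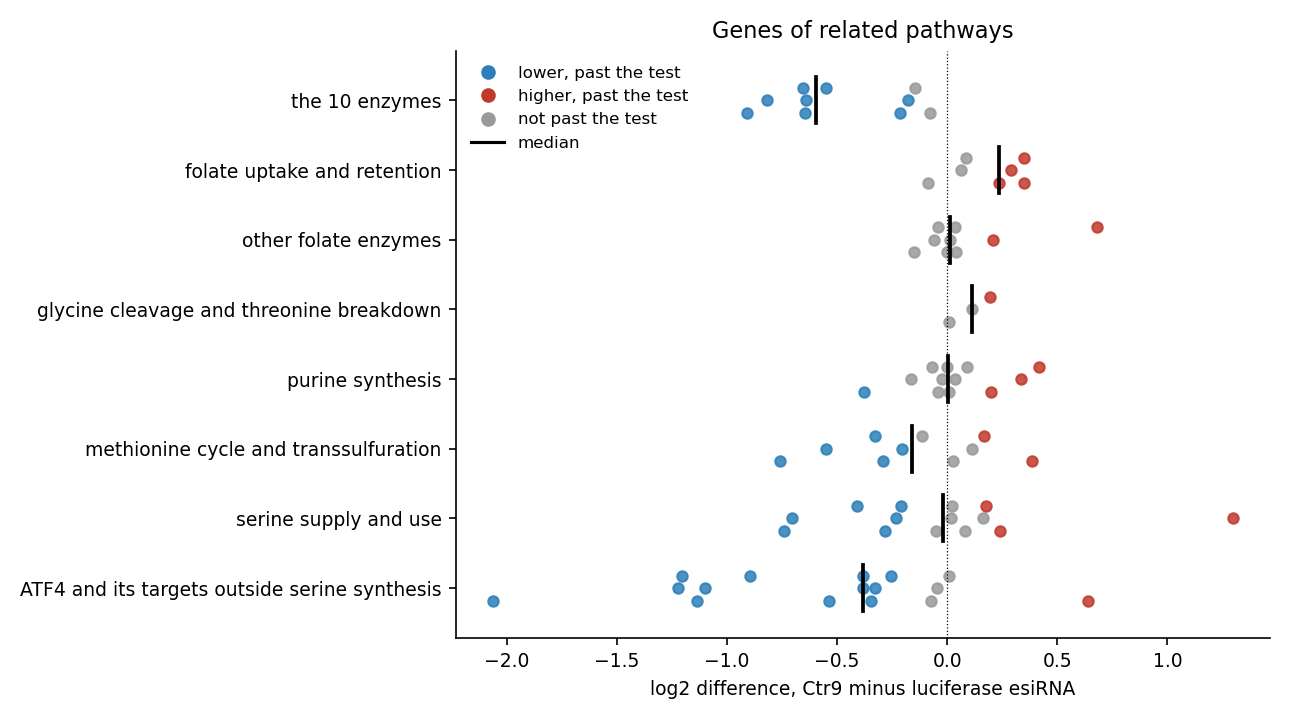
Log2 difference between treatments for the 10 enzymes and for 7 lists of related genes, each gene by its brightest probe set; each point is a gene, coloured by its call in limma, and black bars are medians. The enzymes and the ATF4 list lie mostly below 0 (medians -0.59 and -0.38), and folate uptake lies mostly above 0 (median 0.24).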

How the data were processed

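RNA from 8 samples, 4 per treatment, was hybridised to 1-colour Affymetrix arrays. The authors deposited probe set values on a log2 scale. The submitters' processing notes name GCOS 1.4 and RMA, and the settings are not known here. RMA corrects for background and gives all arrays 1 distribution, which compresses differences of dim probe sets and hides a shift common to all genes. The log2 values were used as deposited, after leaving out 64 control probe sets. Symbols came from the platform annotation, updated through the gene table of GRCm38.p6. None of the enzymes' values was empty.

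Groups were compared with limma 3.58.1 in R 4.3.3, after a check on simulated data. Pairs of enzymes were compared by exact permutation over arrays. Named are all 10 enzymes, up to 4 called genes per related list with the smallest adjusted p and groups apart, and Atf4, Ddit3, Asns, Tdh, Gldc, Tyms, Mthfd2l and Ctr9, and 1 further gene is not reported here. The enzymes, lists and tests were chosen with earlier results of these data known. Identity between paralogous proteins was not analysed here. Alternatives were a filter on dim probe sets, other scalings, a trended robust prior, a replicate block, arrays left out and averaging of all probe sets per gene. For genes outside the 10 enzymes these were added after seeing the data. Figures were drawn with matplotlib 3.10.9.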

Additional observations from a re-analysis of the deposited data

Results flagged for a closer look

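In 56 groups of 4 values, taken from the 24 probe sets and 4 within-array differences, 7 held an array that stood apart from the other 3 by most of the group's range. Chance marks about 5% of groups. On the brightest Shmt1 probe set, luciferase array 4 read 11.19 against 11.03 to 11.05. On the brightest Mthfd1 probe set, luciferase array 1 read 11.58 against 11.66 to 11.67. For Mthfd1l, luciferase array 4 read 10.81 against 10.86 to 10.87. For Aldh1l2, Ctr9 esiRNA array 1 read 5.65 against 5.60 to 5.61. For Shmt2 minus Shmt1, Ctr9 esiRNA array 3 was at -0.23 against -0.31 to -0.29. For the mean of Mthfd2 and Mthfd1l minus Mthfd1, Ctr9 esiRNA array 1 was at -1.06 against -0.998 to -0.99. For the mean of the mitochondrial minus that of the cytosolic folate enzymes, luciferase array 4 was at -0.34 against -0.24 to -0.23. The cause of these single values was not tested.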

How the results depend on the processing

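The 10 enzymes kept their direction under all 16 alternatives, with 7 to 9 of them lower and none higher, and the brightest Shmt1 probe set passed with dim probe sets left out (limma adjusted p = 0.0214) or a trended robust prior (limma adjusted p = 0.00628). The probe set counts ran from 15 to 20 lower of 24. The shift of Aldh1l2 minus Aldh1l1 passed only with the mean of each gene's probe sets (-0.46). With 1 array left out, the shift of Shmt2 minus Shmt1 ran from -0.53 to -0.47, that of the Mthfd comparison from -0.22 to -0.17 and that of Aldh1l2 minus Aldh1l1 from -0.34 to -0.19, where an exact test of 3 against 4 cannot reach 0.05.

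The shared replicate numbers did not pair the arrays (correlations of same-numbered deviations from -0.077 to 0.062), and with the replicate block 8 enzymes and 17 of their probe sets were lower, the shifts being -0.50, -0.27 and -0.20 for the 3 pairs (exact sign-flip permutation, adjusted p = 0.188, 0.25 and 0.188, which 4 pairs cannot bring below the threshold). Uncalled values changed sign for Ctr9 with the mean of its probe sets (0.027). For Tyms they did so with median centring (0.0061), with quantile normalization (0.00045) and without luciferase arrays 3 and 4 (0.047). Tyms also turned positive without luciferase array 1, 3 or 4, or Ctr9 esiRNA array 2 or 4 (0.0061 to 0.030). Its lowest value under any alternative was -0.068. The number of arrays and the compression of dim signals limit what can be seen.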

Other observations

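The 2 probe sets that name Phgdh beside a second gene, and so stood outside the rule, were read apart. The one shared with Gm8096 read 10.48 to 10.51 in the luciferase arrays and 10.24 to 10.40 in the Ctr9 esiRNA arrays, which differed by -0.15 (SE 0.049, limma adjusted p = 0.0421). The one shared with Gm6756 differed by -0.03 (SE 0.044, limma adjusted p = 0.71), with overlapping groups.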
